A study of Mus musculus with 55 samples.

Results

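The urea cycle turns toxic ammonia into urea and runs in hepatocytes, mostly in those near the portal vein. Mitochondria supply carbamoyl phosphate and join it to ornithine to make citrulline, which is exported and converted to arginine in the cytosol, and arginase then releases urea and returns ornithine. Periportal hepatocytes also break down glutamine, histidine and serine, which feeds nitrogen into the cycle, whereas hepatocytes around the central vein capture leftover ammonia as glutamine. The 10 genes described here cover the cycle and its feeders: Gls2, Nags and Cps1 (entry of nitrogen), Slc25a15 and Otc (ornithine import and citrulline synthesis), Ass1, Asl and Arg1 (the cytosolic steps), and Hal and Sds (histidine and serine breakdown). They were picked by gene symbol, with earlier results of these data known, and they are 10 of 24478 symbols in the deposited table.

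RNA of 10 cell populations, sorted by flow cytometry from livers of C57B/L6 mice, was sequenced in 55 libraries: 27 of normal liver, and 28 after surgical removal of part of the liver, known as partial hepatectomy (PH). The comparison at the centre was hepatocytes (HC) after PH against hepatocytes of normal liver, with 4 libraries each. The other sorts were clonal biliary epithelial cells (cBEC, 4 normal and 2 PH libraries), biliary epithelial cells (BEC, 4 and 2), non-progenitor ducts (NPD, 2 and 2), endothelial cells (EC, 2 and 3), liver sinusoidal endothelial cells (LSEC, 3 and 5), blood cells (2 and 2), Thy1 cells (2 and 2), Kupffer cells (KC, the resident macrophages, 2 and 3) and hepatic stellate cells (HSC, 2 and 3). The labels give no time after surgery, age, sex, extent of the resection or pooling of animals, and no genotype beyond the strain. They do not say that replicates came from separate mice, so p-values measure the spread between these libraries, which may be technical. One cBEC library (PH 1) has a treatment tag that reads normal, and its title was followed. Levels are FPKM (fragments scaled by transcript length and library size), so genes can be compared with each other per length. The read depth is unknown.

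All 10 members were detected in all 8 hepatocyte libraries, and their lowest value there was 33.4 FPKM, for Nags after PH. After the data were seen, each hepatocyte group was divided into 2 libraries of higher and 2 of lower summed FPKM. The 2 sets cross the treatment by this construction. Normal libraries 1 and 4 and PH libraries 3 and 4 had the higher sums of FPKM (1133792 to 1203197). Normal libraries 2 and 3 and PH libraries 1 and 2 had the lower (960918 to 1053328). Across genes, partners correlated at 0.9909 (normal 1 and 4), 0.9915 (normal 2 and 3) and 0.983 (PH 3 and 4). PH library 2 was closer to PH libraries 3 and 4 (0.945 and 0.963) than to its partner, PH library 1 (0.938). In both treatment groups 2124 of 10029 tested genes were lower by over 0.5 on the log2 scale in the high-sum libraries, and 731 genes (7.29%) were higher by over 0.5. Among the members 5 of 10 were higher by that amount in both groups: Gls2, Nags, Ass1, Asl and Sds. Nothing in the labels names a batch that matches these sets, so members are given below for all libraries and within each set, where 2 libraries are set against 2. The hepatocyte markers (7 of 7 detected) summed to 100123 to 110221 FPKM in normal and 83260 to 108582 FPKM in PH libraries. Within this list Ttr was lower after PH without overlap (6315 to 9212 FPKM in normal, 4185 to 4385 after PH). Fgb was higher without overlap (3205 to 4993 FPKM in normal, 7423 to 14601 after PH), and the remaining markers overlapped. Kupffer markers summed to 0.26 to 6.49 FPKM in normal and 2.76 to 108.8 FPKM in PH libraries, highest in PH library 2, with 4 of 6 under 1 FPKM in every normal library and 0 of 6 at 0 in all libraries of a group. Endothelial markers summed to 0.81 to 8.07 and 3.73 to 36.65 FPKM, highest in PH library 1, with 0 of 6 at 0 in all libraries of a group. PH library 1 also had the highest sum of 8 mitosis genes, 120.35 FPKM. The other 3 PH libraries had 3.89 to 4.75 FPKM, within the 3.84 to 5.73 FPKM of the normal libraries. The part of these markers and mitosis genes in the results below was not tested.

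In hepatocytes after PH, Gls2 and Ass1 fell, and none of the other 8 members passed the test. Gls2, the liver-type glutaminase that releases ammonia from glutamine, was at 0.26 times its normal mean. Ass1, which joins citrulline to aspartate, was at 0.29 times. The other members had log2 changes between -1.12 (Hal) and 0.72 (Slc25a15), 6 of them below 0. By limma on log2(FPKM + 1), with Benjamini-Hochberg adjusted p under 0.05 over all genes tested, 2 of 10 members were lower and 0 higher, against 4.41% lower and 1.78% higher among 10029 genes. The median log2 change was -0.43 over the members and -0.07 over all genes. The groups of libraries did not overlap for 5 of 10 members, against 18.2% of all genes. Over all genes 179 were higher and 442 lower, and quantile normalization gave 228 and 334, and upper-quartile scaling 217 and 286. With a term for the library sets, a setting chosen after seeing the data, 4 members were lower (Gls2, Ass1, Asl and Hal) and 1 was higher (Slc25a15). Within the high-sum libraries 6 were lower (those 4, Otc and Sds) and Slc25a15 was higher, and within the low-sum libraries Ass1 alone was lower. Over all genes the term gave 1557 lower and 634 higher of 10029. The high-sum libraries gave 1115 and 546 of 9736, and the low-sum libraries 105 and 43 of 10385. Calls thus moved over all genes as well as over the members.

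**Figure D1:**
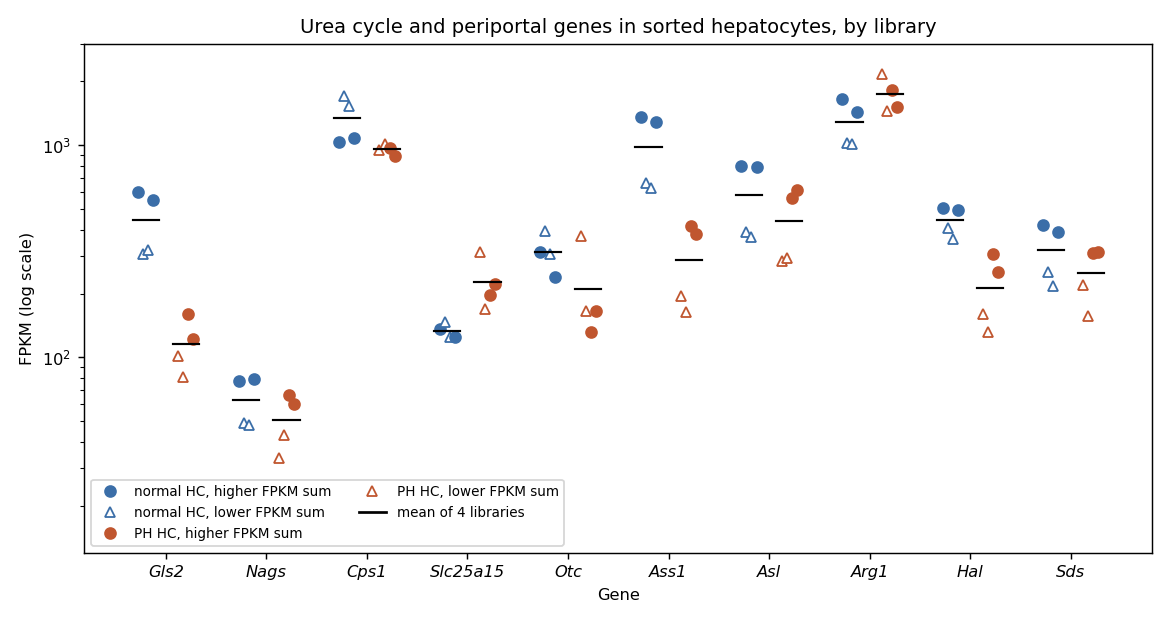
FPKM (log axis) of the 10 members in each hepatocyte library, with blue points for normal and orange for PH, filled circles for the 2 libraries of each group with the higher sum of FPKM, open triangles for the 2 with the lower sum, and a line at the mean of 4. The PH points of Gls2 (81.1 to 160.6) and Ass1 (163.6 to 417.0) all lie below the normal points, and for Ass1, Asl and Sds the circles lie above the triangles of the same group.

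Entry of nitrogen came first. Gls2 (NM_001033264, mm9 chromosome 10, 127631691 to 127647060, plus strand) was at 601.1, 307.3, 319.9 and 553.2 FPKM in normal libraries 1 to 4 and at 101.0, 81.1, 160.6 and 121.5 FPKM in PH libraries 1 to 4. The highest PH library lay below the lowest normal one. The mean went from 445.4 ± 153.5 to 116.1 ± 34.0 FPKM (SD, n = 4 each). Limma gave a difference of -1.91 on the log2 scale (SE 0.30, adjusted p 0.00655). It was -2.04 within the high-sum and -1.78 within the low-sum libraries, where the adjusted p was 0.0522 by limma. The table lists 3 transcripts of Gls2, whose hepatocyte means lay within 438.5 to 445.4 FPKM in normal liver and 114.3 to 116.1 FPKM after PH, so the values do not distinguish them.

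Nags (NM_145829, chromosome 11, 102006827 to 102010842, plus strand) makes N-acetylglutamate, the obligatory activator of Cps1, and was the lowest member in both groups. It stood at 77.2, 49.2, 47.8 and 78.8 FPKM in normal and 33.4, 42.9, 66.7 and 60.4 FPKM in PH libraries, which overlapped. Its change was -0.32 on the log2 scale (SE 0.28, limma adjusted p 0.556), with -0.29 in the high-sum and -0.35 in the low-sum libraries.

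Cps1 (NM_001080809, chromosome 1, 67169601 to 67277841, plus strand), the mitochondrial carbamoyl phosphate synthetase and the first committed enzyme, was at 1033, 1709, 1535 and 1083 FPKM in normal and 952.5, 1016, 967.5 and 888.8 FPKM in PH libraries. Every PH library was below every normal one, but normal libraries 1 and 4 exceeded the highest PH library by little. PH against normal gave -0.45 on the log2 scale (SE 0.22) and did not pass (limma adjusted p 0.278), with -0.19 in the high-sum and -0.72 in the low-sum libraries. In normal liver Cps1 was lower in the high-sum set, the reverse of Ass1 and Asl.

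The mitochondrial pair went in opposite directions on average, without passing. Slc25a15 (NM_181325, chromosome 8, 23486022 to 23509093, minus strand), the carrier that exchanges cytosolic ornithine for citrulline, was at 135.9, 146.9, 124.5 and 124.8 FPKM in normal and 315.2, 168.5, 197.5 and 222.2 FPKM in PH libraries. All PH libraries lay above all normal ones. The log2 change was 0.72 (SE 0.23, limma adjusted p 0.0955), and 0.68 and 0.76 within the high-sum and low-sum sets. With the term for the sets it passed (limma adjusted p 0.0297), as it did with quantile normalization (0.0362).

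Otc (NM_008769, chromosome X, 9829431 to 9898150, plus strand), the X-linked enzyme that makes citrulline from ornithine and carbamoyl phosphate, was at 314.3, 395.1, 308.3 and 239.8 FPKM in normal and 375.1, 165.1, 131.7 and 166.4 FPKM in PH libraries. PH library 1 alone reached the normal range. Its change was -0.69 on the log2 scale (SE 0.33, limma adjusted p 0.263), and without PH library 1 it was -1.01 (limma adjusted p 0.0275). It was -0.89 within the high-sum libraries (limma adjusted p 0.0108) and -0.49 within the low-sum ones (0.517). PH library 1 is the one with the high mitosis genes and the highest endothelial marker sum.

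Among the cytosolic enzymes Ass1 stood apart. Ass1 (NM_007494, chromosome 2, 31325790 to 31376190, plus strand) was at 1363, 663.6, 628.7 and 1286 FPKM in normal and 194.9, 163.6, 417.0 and 381.9 FPKM in PH libraries. No PH library reached the lowest normal one, and in each group the high-sum libraries were well above the low-sum ones. The mean went from 985.3 ± 393.2 to 289.3 ± 128.6 FPKM (SD, n = 4 each). On the log2 scale this was a difference of -1.79 (SE 0.39), with an adjusted p of 0.0267 by limma. Within the sets the log2 change was -1.73 and -1.85. It did not pass without normal library 1 or 4 or PH library 1 or 2 (limma adjusted p 0.0594 to 0.0784, with log2 changes of -1.55 to -1.64), with no filter on low values (0.0672) or with the replicate block (0.0546).

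Asl (NM_133768, chromosome 5, 130487373 to 130500201, minus strand), which splits argininosuccinate into arginine and fumarate, was at 794.5, 391.1, 367.9 and 788.0 FPKM in normal and 284.0, 294.5, 565.5 and 612.9 FPKM in PH libraries. The groups overlapped, since the PH high-sum libraries exceeded the normal low-sum ones. PH against normal gave -0.41 on the log2 scale (SE 0.37, limma adjusted p 0.575), and it was -0.43 and -0.39 within the sets. With the term for the sets Asl passed (limma adjusted p 0.0446).

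Arg1 (NM_007482, chromosome 10, 24635013 to 24647276, minus strand), the arginase that releases urea, was at 1651, 1020, 1013 and 1439 FPKM in normal and 2159, 1452, 1818 and 1513 FPKM in PH libraries, which overlapped. The log2 change was 0.45 (SE 0.24, limma adjusted p 0.317), with 0.11 in the high-sum and 0.80 in the low-sum set.

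Hal and Sds open the breakdown of histidine and of serine. Hal (NM_010401, chromosome 10, 92951513 to 92979506, plus strand), histidine ammonia-lyase, was at 503.8, 406.6, 362.8 and 494.7 FPKM in normal and 160.9, 131.7, 305.5 and 251.6 FPKM in PH libraries. The groups did not overlap. Its change was -1.12 on the log2 scale (SE 0.29), and the limma adjusted p of 0.050005 lay just above the threshold. Within the high-sum libraries it was -0.85 (limma adjusted p 0.00339) and within the low-sum ones -1.39 (0.073). It passed with the term for the sets (limma adjusted p 0.00222), with quantile normalization (0.0318), in a single fit of all 20 groups (0.00241) and without PH library 3 (0.0346). Sds (NM_145565, chromosome 5, 120926556 to 120933914, plus strand), serine dehydratase, was at 421.9, 253.7, 216.2 and 391.3 FPKM in normal and 220.1, 156.3, 312.0 and 312.3 FPKM in PH libraries, which overlapped. Its log2 change was -0.36 (SE 0.31, limma adjusted p 0.552), with -0.38 in the high-sum and -0.33 in the low-sum libraries.

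**Figure D2:**
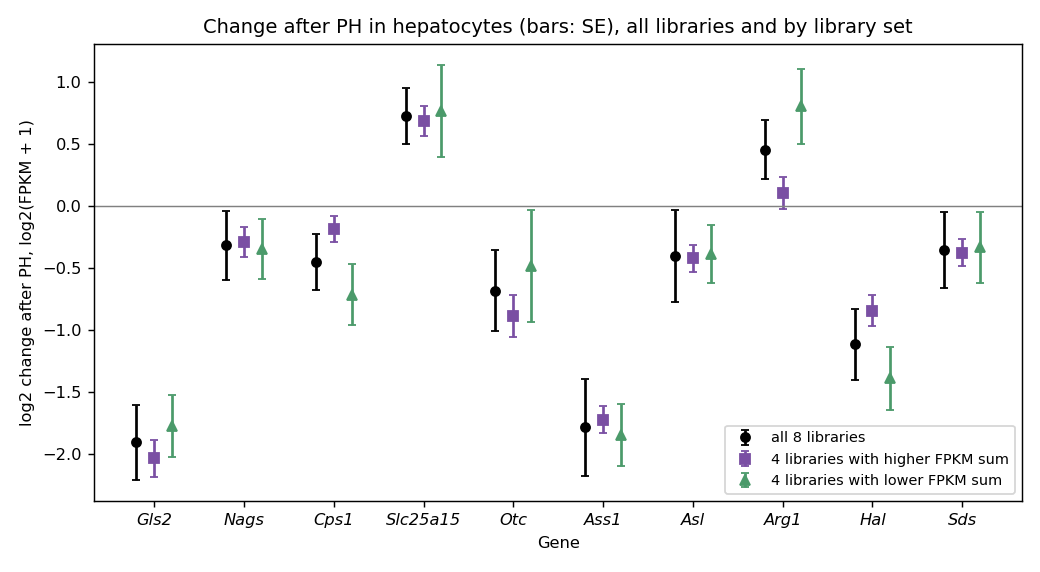
Log2 change after PH of each member on the log2(FPKM + 1) scale with its SE, for all 8 hepatocyte libraries (black circles), the 4 with the higher sum of FPKM (purple squares) and the 4 with the lower sum (green triangles). Gls2 and Ass1 lie between -1.73 and -2.04 in all 3 sets, and Cps1, Arg1 and Hal differ most between the sets.

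The 250 bases upstream of the start site were read from the RefSeq promoter table (build GRCm38.p6, a different build from the mm9 coordinates above) for the 5 members it holds: Nags, Slc25a15, Otc, Ass1 and Hal. Cps1, Asl, Arg1, Gls2 and Sds are named only. The sequences of Ass1 and Hal are shown because these members had the largest negative changes among the 5, and that of Otc for comparison. Capitals mark matches, on either strand, to a C/EBP-type motif (TTNNGNAA) or a TATA motif (TATAAA).
Ass1, chr2:31470020-31470269, plus strand: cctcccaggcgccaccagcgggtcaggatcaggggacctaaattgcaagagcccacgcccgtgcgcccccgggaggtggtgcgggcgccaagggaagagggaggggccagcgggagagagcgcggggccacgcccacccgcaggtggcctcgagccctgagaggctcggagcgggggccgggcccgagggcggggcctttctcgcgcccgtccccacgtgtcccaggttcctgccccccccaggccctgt
Hal, chr10:93488518-93488767, plus strand: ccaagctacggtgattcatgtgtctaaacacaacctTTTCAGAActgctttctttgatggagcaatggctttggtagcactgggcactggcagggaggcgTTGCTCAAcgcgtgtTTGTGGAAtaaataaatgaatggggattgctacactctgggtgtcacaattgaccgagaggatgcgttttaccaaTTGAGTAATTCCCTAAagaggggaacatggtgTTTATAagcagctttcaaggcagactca
Otc, chrX:10252055-10252304, plus strand: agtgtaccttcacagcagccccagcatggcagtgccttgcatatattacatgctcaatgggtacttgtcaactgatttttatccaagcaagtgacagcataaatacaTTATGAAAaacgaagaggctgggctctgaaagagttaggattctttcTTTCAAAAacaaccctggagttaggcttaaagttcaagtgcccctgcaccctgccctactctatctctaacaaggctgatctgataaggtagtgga
The Hal window held 5 C/EBP-type matches, a number reached by 0.128% of the 32851 windows in the table. It also held 1 TATA match from position -28 to -23 before the start site, on the strand opposite to the gene. The Otc window held 2 C/EBP-type matches (10.9% of windows have at least as many) and the Nags window 1 (36.8% of windows have at least 1), and none was found in the Ass1 window or in either Slc25a15 window. TATA matches occur in 12.4% of windows. An HNF4 motif (CAAAGTCCA, 0.384% of windows), a cyclic AMP response element (TGACGTCA, 1.55%) with its core (TGACG, 17.8%, which lies within the full element), and a glucocorticoid response element (searched by its consensus, 0.0365%) had no match in these 6 windows. A match is a run of letters, not a shown binding site. Cebpa, which encodes the liver factor C/EBP alpha, fell from 223.2 ± 88.4 to 77.4 ± 28.6 FPKM (SD, n = 4 each), or 0.347 times its normal mean (adjusted p 0.0347 by limma). It did not pass under 9 of 18 alternatives, with a limma adjusted p of up to 0.0978. A link between the level of Cebpa, the motif matches and the changes of the members was not tested.

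Levels within a library were then compared, since a ratio of members is free of any factor that scales a library as a whole. In normal hepatocytes the order of means was Cps1, Arg1, Ass1, Asl, Gls2, Hal, Sds, Otc, Slc25a15 and Nags. Neighbours down to Sds and Otc overlapped between libraries, and Cps1 exceeded Arg1 in 2 of 4 libraries, Gls2 exceeded Hal in 2 of 4, and Sds exceeded Otc in 2 of 4. Otc, Slc25a15 and Nags were separated without overlap. After PH the order was Arg1, Cps1, Asl, Ass1, Sds, Slc25a15, Hal, Otc, Gls2 and Nags. Arg1 exceeded Cps1 in 4 of 4 libraries without overlap, Cps1 likewise exceeded Asl, and Asl exceeded Ass1 in 4 of 4 libraries, whereas Ass1 exceeded Asl in 4 of 4 normal libraries. Among Sds, Slc25a15, Hal and Otc after PH, neighbours overlapped and each exceeded the next in 2 of 4 libraries. Sds and Hal, not neighbours in this order, were separated within every library. The Sds to Hal ratio was 0.84, 0.62, 0.60 and 0.79 in normal and 1.37, 1.19, 1.02 and 1.24 in PH libraries. The 10 members, with 1 row each, made up 0.512% to 0.595% of the summed FPKM in normal hepatocytes and 0.372% to 0.455% after PH. That sum runs over all 36141 deposited rows, where a symbol with several rows counts more than once.

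The Ass1 to Asl ratio, singled out after its values were seen, was 1.72, 1.70, 1.71 and 1.63 in normal libraries 1 to 4 and 0.69, 0.56, 0.74 and 0.62 in PH libraries 1 to 4. Both genes differed about equally between the library sets, so their ratio was nearly constant within normal liver, with an SD of 0.03 on the log2 scale. The mean log2 ratio, PH minus normal, was -1.38. Of the 45 ratios between members, 23 did not overlap between normal and PH libraries, against 18.0% of all pairs of the 9959 genes above 0 in every hepatocyte library. Gls2 did not overlap against 7 of its 9 partners, being lower relative to each of the 7 after PH, and Ass1 against 6 of 9, again lower in each. Without overlap, Slc25a15 was higher relative to 6 of its 9 partners, and Arg1 relative to 5. Slc25a15 against Otc went from 0.43, 0.37, 0.40 and 0.52 in normal to 0.84, 1.02, 1.50 and 1.34 in PH libraries.

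**Figure D3:**
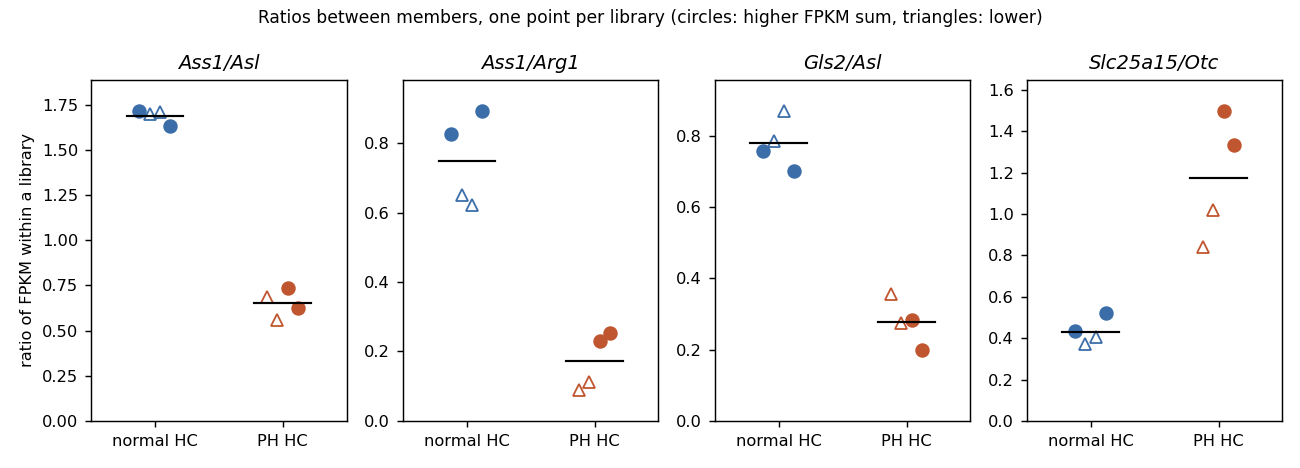
Ratio of FPKM between 2 members within each hepatocyte library, from left to right Ass1 to Asl, Ass1 to Arg1, Gls2 to Asl and Slc25a15 to Otc, with normal libraries in blue, PH in orange, circles for libraries with the higher sum of FPKM, triangles for the lower, and a line at the mean. The Ass1 to Asl ratio lies at 1.63 to 1.72 in normal and 0.56 to 0.74 in PH libraries. The 4 ratios shown are among the 23 of 45 whose groups do not overlap, so the separation in every panel follows from the choice.

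Genes that feed, drain or border the cycle were read from the same fit. Of 132 tested genes in 13 lists, 25 fell and 0 rose, against 4.41% and 1.78% of all genes. With the term for the sets 57 fell and 6 rose, and within the low-sum libraries 4 fell and 0 rose. Over all genes the term gave 1557 falls and 634 rises, and the low-sum libraries 105 and 43. Leaving out 1 library gave 14 to 27 falls, with 14 without PH library 4, 15 without normal library 2 and 16 without normal library 3. The replicate block gave 15.

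Among suppliers of glutamate, aspartate and bicarbonate, 2 of 10 tested genes fell and the list median was -0.12. Gpt, the alanine aminotransferase that moves nitrogen from alanine to glutamate, went from 298.2 ± 22.1 to 114.0 ± 40.5 FPKM (SD, n = 4 each). Limma gave a difference of -1.45 on the log2 scale (SE 0.27, adjusted p 0.0128). Car5a, the mitochondrial carbonic anhydrase that provides bicarbonate for Cps1, changed by -1.15 (limma adjusted p 0.00625). Glud1, which releases ammonia from glutamate, changed by 0.44 (limma adjusted p 0.236), and Slc25a13, the aspartate carrier citrin, by 0.09 (limma adjusted p 0.84). Neither of these passed.

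None of the 8 tested genes that use ornithine, arginine or carbamoyl phosphate elsewhere passed the limma test, and their log2 changes ran from -0.31 to 0.46. Odc1, which commits ornithine to polyamines, was at 15.4 ± 3.46 in normal and 21.7 ± 5.48 FPKM after PH (SD, n = 4 each) (log2 change 0.46, adjusted p 0.337 by limma). Oat, which removes ornithine in pericentral cells, was at 269.4, 369.8, 265.0 and 243.4 FPKM in normal and 708.0, 199.2, 166.6 and 114.2 FPKM in PH libraries. PH library 1 was the highest of all 8 and the other 3 lay below every normal library. Arg2, the mitochondrial arginase, was under 1 FPKM in all hepatocyte libraries and was not tested.

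For glutamine and ammonia handling, 3 of 4 tested genes fell, with a median of -1.95. Glul, the pericentral glutamine synthetase, was at 157.6, 241.4, 273.0 and 177.1 FPKM in normal and 102.1, 38.1, 38.5 and 25.6 FPKM in PH libraries. All PH libraries lay below all normal ones, with PH library 1 the highest of the 4. PH against normal gave -2.20 on the log2 scale (SE 0.39, limma adjusted p 0.0105). Rhbg, an ammonia transporter, also changed by -2.20 (SE 0.23, adjusted p 0.000559 by limma). Slc38a3, a glutamine transporter outside the rule for named genes and not restricted to pericentral cells, changed by -1.71 (limma adjusted p 0.0143).

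In the histidine pathway the 2 enzymes that act directly after Hal fell. Uroc1, the second step, went from 229.0 ± 17.5 to 91.9 ± 23.0 FPKM, and Amdhd1, the third, from 186.8 ± 4.81 to 80.2 ± 23.4 FPKM (SD, n = 4 each). Their log2 changes were -1.34 and -1.25 (limma adjusted p 0.00834 and 0.0122). Ftcd, the last step, changed by -0.72 and did not pass (limma adjusted p 0.0934). Hdc, which makes histamine from histidine, changed by -0.17 (limma adjusted p 0.891).

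Of 12 tested genes of serine, glycine and threonine metabolism, 2 fell: Sardh, a sarcosine dehydrogenase (-1.62, limma adjusted p 0.0362), and Shmt1, the cytosolic serine hydroxymethyltransferase (-0.77, limma adjusted p 0.0427). Sardh did not pass under 9 of 18 alternatives (limma adjusted p of up to 0.0949) and Shmt1 under 13 (up to 0.379). Sdsl, a paralog of Sds, changed by 0.46 (limma adjusted p 0.557). Of 14 genes for phenylalanine, tyrosine and tryptophan, 2 fell, among them Afmid of the kynurenine pathway, from 81.7 ± 22.2 to 9.32 ± 1.32 FPKM (SD, n = 4 each; log2 change -2.97, limma adjusted p 0.000137). Of 16 for branched-chain amino acids, lysine and proline, 3 fell: Prodh, proline dehydrogenase (-1.51), Ivd, isovaleryl-CoA dehydrogenase (-1.42), and Mccc1 (-0.99), the last outside the rule. Of 9 for methionine and cysteine, 2 fell, Csad (-1.49) and Mpst (-1.34), which did not pass under 11 and 10 of 18 alternatives (limma adjusted p of up to 0.222 and 0.0964). The medians of these 4 lists were -0.63, -0.55, -0.71 and -0.58.

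Gluconeogenesis, a periportal function that shares hormonal control with the cycle, had 0 of 7 tested genes called by limma, with a median of -0.07. Pck1, the gluconeogenic PEP carboxykinase, was at 1036 ± 217 in normal and 1728 ± 476 FPKM after PH (SD, n = 4 each). On the log2 scale this was a difference of 0.72 (SE 0.26), with an adjusted p of 0.146 by limma. Amino acid transporters had 0 of 10 called, with a median of -0.24. Over all genes tested, limma had an unadjusted p under 0.05 for 21.5%. Of 18 transcription factors, receptors and sirtuins, 3 fell, among them Cebpa (above) and, outside the rule, Klf15 (-0.88, limma adjusted p 0.027). Hnf4a, another factor outside the rule, changed by 0.13 (limma adjusted p 0.747).

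Genes known as periportal and genes known as pericentral both had falls. The libraries hold bulk RNA without the position of cells, so where in the lobule levels changed was not tested. Of 10 other periportal genes 3 fell: Cyp2f2 (-1.76, limma adjusted p 0.00883), Uox (-1.44) and, outside the rule, Pigr (-1.23). Of 11 tested pericentral genes 3 fell: Cyp2a5 (-3.11, limma adjusted p 0.0203), Cyp1a2 (-2.16) and, outside the rule, Cyp2e1 (-1.46). The medians were -0.88 and -0.63. A difference between the periportal and pericentral lists was not tested. Of the other pathway genes named above by the rule, Rhbg, Afmid, Prodh and Cyp2f2 passed under all 18 alternatives. Car5a, Glul, Uroc1, Amdhd1 and Ivd did not pass under 1 of them, Gpt and Uox under 2, Cyp1a2 under 5 and Cyp2a5 under 6.

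**Figure D4:**
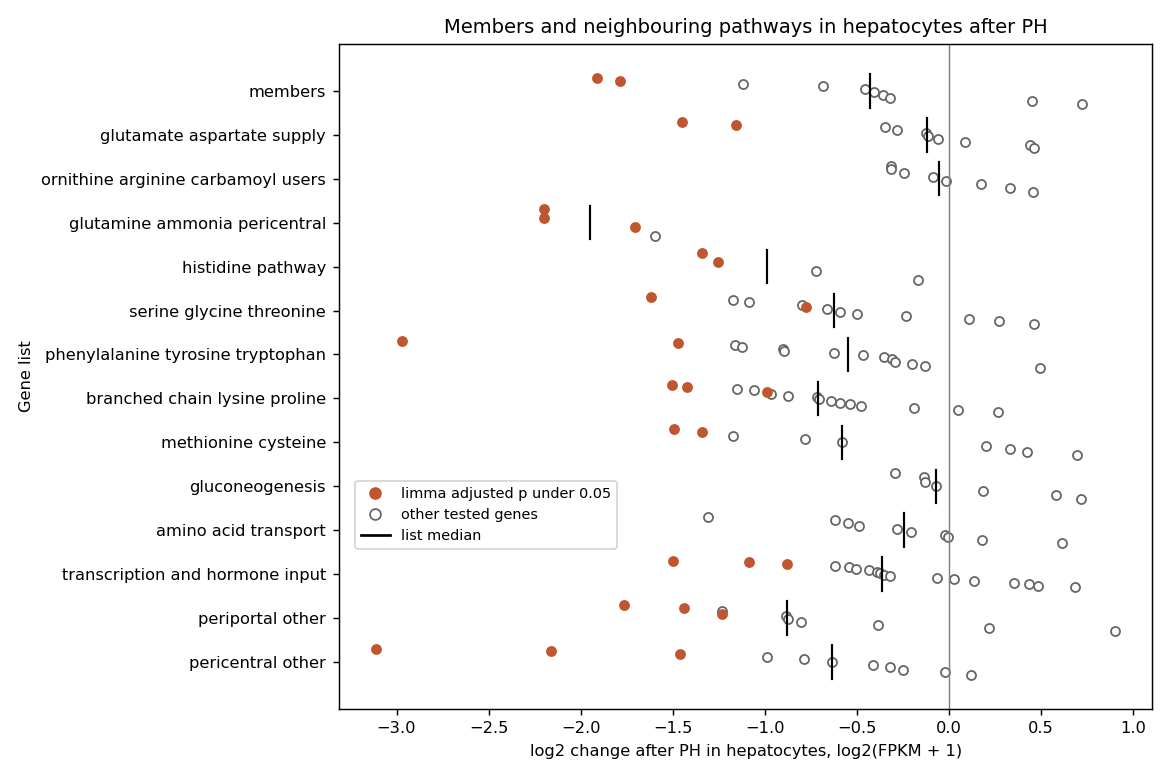
Log2 change after PH in hepatocytes, on the log2(FPKM + 1) scale, of each tested gene in the members and 13 other lists, with filled points for genes that passed the limma test at adjusted p under 0.05, open points for the others, and a line at the list median. All filled points lie below 0, and gluconeogenesis, amino acid transport and the users of ornithine hold none.

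Outside hepatocytes the members were mostly listed at 0. Of 470 values of the 10 members in the 47 other libraries, 334 (71.1%) were exactly 0. Zeros were more frequent for genes abundant in hepatocytes. Counted over genes whose mean reached 10 FPKM in 5 or more of the other groups, 1.23% of values were 0 where the hepatocyte mean was under 30 FPKM and 11.8% where it was 300 FPKM or more. A member listed at 0 was therefore not read as absent, and no size is given for a change against a group wholly at 0. Of the 7 hepatocyte markers, all were at 0 in normal LSEC libraries, and Trf, which encodes transferrin, alone was above 0 in PH LSEC and in the blood and KC sorts. In bulk sorted RNA, fewer cells of a type and less RNA per cell cannot be told apart.

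Of 23 pairs of a member and another population that passed the filter on low values, 5 were called by limma: Arg1 and Asl in blood, Ass1 and Otc in LSEC, and Hal in NPD. Each of these passed the filter through the group in which it was high, so the number called is a description and supports no response of the members as a set. Of all genes tested, 64.0% were called in either direction in blood (24.3% higher, 39.7% lower), 8.46% in LSEC (4.15% higher, 4.31% lower) and 15.2% in NPD (9.65% higher). In the populations where no member was called, the share was 1.81% in BEC and 0.0681% in cBEC, and for EC, HSC and Thy1 it was 0.0249%, 0.00853% and 0.00747%. No member could be tested in KC. The 18 pairs that were not called include every tested value of Slc25a15.

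Ass1 was listed higher in LSEC after PH and fell in hepatocytes. It was at 0, 2.49 and 0 FPKM in normal LSEC and 9.96, 8.997, 4.79, 14.7 and 8.39 FPKM in PH LSEC, without overlap (18.8% of LSEC genes do not overlap). By limma its log2 change was 2.70 (SE 0.45), with an adjusted p of 0.0077, or 0.119 with the replicate block. The size depends on the pseudocount, since 2 normal values are 0, and was 4.91 with a pseudocount of 0.1. In the same sort Trf, the 1 hepatocyte marker above 0, went from 0 in every normal library to between 4.84 and 19.2 FPKM in PH libraries, with 6 of 7 hepatocyte markers at 0 throughout. Kupffer markers summed to 6.24 to 134.7 FPKM in normal and 2.64 to 12.8 FPKM in PH LSEC, and endothelial markers to 5023 to 7926 and 2651 to 4836 FPKM. The part of these shifts in the values of Ass1 and Otc was not tested. In EC it was at 2.61 and 1.58 FPKM in normal and 8.70, 9.83 and 7.02 FPKM in PH libraries, also without overlap (29.5% of EC genes), and did not pass (limma adjusted p 0.181). It was listed at 0 in both normal Thy1 and both normal HSC libraries and above 0 in every PH library of both sorts (4.32 and 5.80 FPKM in Thy1, and 8.20, 22.1 and 1.08 FPKM in HSC), which did not pass (limma adjusted p 0.13 and 0.508). The response of Ass1 in LSEC exceeded that in hepatocytes by 4.49 on the log2 scale (SE 0.76, limma adjusted p 9.60e-05 in a single fit of all 20 groups). Ass1 passed the LSEC filter through the PH libraries, and the size again depends on the pseudocount. This difference therefore describes the listed values and does not establish an opposite response. Members differed in this way from hepatocytes in 9 of the 23 pairs, and in 6 of the 9 one group of the other sort was listed wholly at 0. Over all genes the share was 3.77% in cBEC, 3.26% in BEC, 8.99% in NPD, 2.09% in EC, 5.16% in LSEC, 35.1% in blood, 7.53% in Thy1 and 10.2% in HSC. The share of zeros in other sorts moved with the hepatocyte level, and its part in the values of Ass1 was not tested. In endothelium Ass1 and Asl are known for recycling citrulline to arginine for nitric oxide synthesis. Asl was between 8.17 and 10.4 FPKM in all 8 LSEC libraries, and did not pass (limma adjusted p 0.988).

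Arg1 was listed higher in the blood sort after PH. It was listed at 0 in both normal blood libraries and was at 137.4 and 249.6 FPKM after PH (limma adjusted p 0.000766). It passed the filter through the PH group, and the zeros are not read as absence. The p-value is therefore a description and does not establish a rise. In the same libraries the 6 Kupffer markers (6 of 6 at 1 FPKM or more in each group) summed to 649 to 944 FPKM in normal and 9655 to 16877 FPKM after PH, and 7 blood markers to 4152 to 4348 and 530 to 985 FPKM, with none of either list at 0 in every library. Endothelial markers summed to 641 to 735 FPKM in normal and 2069 to 4646 FPKM after PH, and Trf, the 1 hepatocyte marker of 7 above 0, went from 46.7 to 79.3 FPKM to 314.9 to 365.3 FPKM. The part of these shifts in the values of Arg1 and Asl was not tested. Arg1 was listed at 0 in all 5 KC libraries, normal and PH, where Kupffer markers summed to 12214 to 28592 FPKM. All 10 members were at 0 in these KC libraries, so the zeros are not particular to Arg1. Arg1 is known as a marker of alternatively activated macrophages and of some neutrophils. Asl in blood was at 24.1 and 14.5 FPKM in normal and 4.68 and 0 FPKM in PH libraries (limma adjusted p 0.0316), and with either normal library left out the adjusted p was 0.216 or 0.154. It also did not pass with no filter on low values (0.0667) or a pseudocount of 0.1 (0.0806). Arg2, by contrast, was at 14.5 and 14.8 FPKM in normal and 11.3 and 9.10 FPKM in PH blood.

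Otc in LSEC was at 7.13, 1.12 and 1.39 FPKM in normal libraries and between 0 and 0.0537 FPKM in PH libraries (limma adjusted p 0.0288). It did not pass without normal library 1 or without PH library 1, 4 or 5 (limma adjusted p 0.0596 to 0.0667), with the replicate block (0.250) or with no filter (0.0582). Hal in NPD was listed at 0 in both normal and at 3.48 and 2.04 FPKM in both PH libraries (limma adjusted p 0.0269), and with either PH library left out the adjusted p was 0.449 or 0.332, and with no filter 0.0538. In PH NPD library 1 Cps1, Gls2, Ass1 and Sds were also above 0 (22.1, 3.02, 6.72 and 8.40 FPKM), and all 4 were at 0 in PH NPD library 2. Of the 7 hepatocyte markers Apob was at 0 in normal NPD and at 0 to 9.49 FPKM after PH, Trf was at 378.7 to 413.6 and 197.2 to 377.9 FPKM, and 5 were at 0 throughout. Kupffer markers summed to 123.6 to 231.5 FPKM in normal and 19.4 to 28.3 FPKM in PH NPD, and endothelial markers to 176.2 to 222.5 and 53.4 to 58.1 FPKM. Their part in the value of Hal was not tested. Slc25a15 was the member with the fewest zeros, at 0.468 to 11.95 FPKM wherever it was above 0 outside hepatocytes. It was listed at 0 in both PH cBEC, both PH BEC and all 5 KC libraries, against 0.584 to 9.24 FPKM in the 4 normal BEC libraries (limma adjusted p 0.118).

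**Figure D5:**
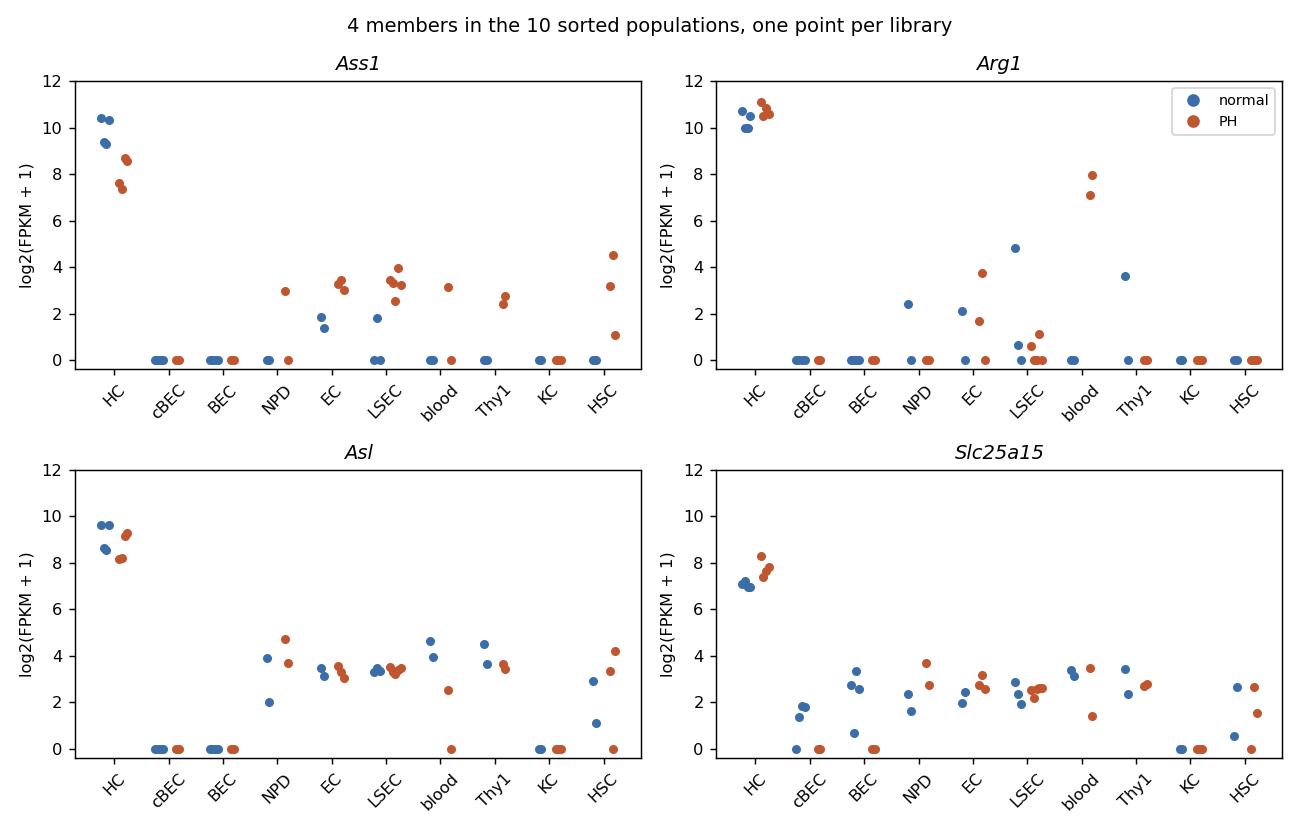
Log2(FPKM + 1) of Ass1, Arg1, Asl and Slc25a15 in each library of the 10 sorted populations, blue for normal and orange for PH. Hepatocytes are highest for all 4 genes, Ass1 in LSEC is at 4.79 to 14.7 FPKM after PH against 0 to 2.49 in normal liver, and Arg1 is above 100 FPKM outside hepatocytes only in the 2 PH blood libraries.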

How the data were processed

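Transcript levels of 10 members were taken from a deposited table of 55 libraries, with 1 column per replicate, per the file headers. Its values are FPKM, going by the name the authors gave the table. CASAVA 1.8.2, Bowtie 1.0.0 and the build mm9 are named, without a role, in the submitters' processing notes; the counting tool is not given in the sources used here. The table has 36141 rows, and a symbol with several rows was represented by the one of highest overall mean. Its start column counts from 0 (end minus start equalled the RefSeq length for 1567 of 1615 genes under 200 bases), so 1 was added. Hepatocyte values are rounded to 2 decimals, and FPKM give no depth, so no counting interval is given. Values of the other sorts carry more decimals, and whether they were processed differently is not stated in the sources used here. The single fit of all 20 groups and the differences of responses join both kinds of values.

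PH was compared with normal within a population with limma 3.58.1 (R 4.3.3), fitted to log2(FPKM + 1) with trended, robust variances, two-sided, over genes at 1 FPKM or more in as many libraries as the smaller group has (4 in HC). A fold change on this scale understates that of low genes. Named genes were the members, 9 fixed genes, and from each list the 2 largest rises and falls that passed, did not overlap and reached 0.5 on the log2 scale. Some listed genes are counted but not reported here by name. The members and lists were chosen with earlier results of these data known. Alternatives were a pseudocount of 0.1, no filter, quantile or upper-quartile normalization, a single fit of 20 groups, a replicate block, the mean over a symbol's rows and leaving out each replicate. The split of the hepatocyte libraries by sum of FPKM, the differences of responses and the ratios were added after seeing the data. The fit was tested on simulated data. Figures used Python 3.11.15 and matplotlib 3.10.9.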

Additional observations from a re-analysis of the deposited data

Results flagged for a closer look

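In 94 groups of values, 16 had 1 library lying far outside the rest by Dixon's test. Its nominal rate of about 1 in 20, or 4.7, assumes normally distributed values. It does not hold for FPKM groups with zeros, where a single value above 0 is always flagged. The number flagged is therefore a description only. In PH hepatocytes library 1 had Otc at 375.1, Oat at 708.0 and Glul at 102.1 FPKM, each far above the other 3 libraries, and a mean log2(FPKM + 1) of 3.49 over the mitosis genes against 0.51 to 0.53. Odc1 was lowest in PH hepatocyte library 2, at 13.6 FPKM against 23.9 to 25.4. The biliary marker mean was 0.922 in PH hepatocyte library 4 and the blood marker mean 0.344 in normal hepatocyte library 4. In normal cBEC library 1 Glul was at 208.0 FPKM against 75.05 to 82.6, and Oat at 27.2 FPKM with the other 3 listed at 0. Cad was at 7.14 FPKM in normal BEC library 3 and at 7.94 FPKM in PH LSEC library 5. In PH LSEC, Glul was at 484.8 FPKM and Gls2 at 0.32 FPKM in library 2, Nags at 0.0248 and Hal at 0.00104 FPKM in library 4, and Sds at 0.495 FPKM in library 5.

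The response to PH differed from that of hepatocytes in 9 of 23 pairs of a member and a population tested in a single limma fit of all 20 groups. As differences on the log2 scale, other population minus hepatocytes, these were 3.42 for Ass1 in EC, where no value is 0, 4.49 for Ass1 in LSEC, where 2 normal values are 0, and -2.64 for Asl in blood, where 1 PH value is 0. The LSEC and blood pairs passed the filter through the group in which they were high, so their sizes are descriptions. In the other 6 pairs (Ass1 in Thy1 and HSC, Hal in NPD and EC, Slc25a15 in BEC and Arg1 in blood) 1 group was listed at 0 in every library, so the size depends on the pseudocount and is not given.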

How the results depend on the processing

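Of 711 refits of 41 single-gene results, 593 kept their direction and their side of the threshold, 100 no longer passed, 16 newly passed and 2 reversed, both for Oat in HC (-0.31 with all libraries, 0.0175 without PH library 4 and 0.26 in the low-sum libraries; leaving out 1 library gave -0.857 to 0.0175). Members called higher in HC (0) became 1 with quantile normalization, with the term for the library sets and in the high-sum libraries, and stayed at 0 when any 1 library was left out. Members called lower (2) became 1 with no filter, with the replicate block and in the low-sum libraries, 4 with the term for the library sets and 6 in the high-sum libraries, and ranged from 1 to 3 when a library was left out. Pathway genes called lower (25) became 15 with the replicate block, 57 with the term for the library sets, 59 in the high-sum and 4 in the low-sum libraries, and 14 to 27 when a library was left out. Pathway genes called higher (0) became 1 with upper-quartile scaling, 6 with the term and 9 in the high-sum libraries, and 0 to 2 when a library was left out. Pairs called in other populations (5) became 2 with no filter and 8 in the single fit, and 4 to 7 when a library was left out. The cause of these moves was not tested.

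The replicate numbers did not pair hepatocyte libraries: deviations of same-numbered libraries from their group means correlated across genes at -0.323, 0.574, -0.672 and 0.437. With the replicate block Gls2 still passed (limma adjusted p 0.0301), Ass1 did not (0.0546), and all genes called went from 179 higher and 442 lower to 97 and 205. Over all genes the counts were 136 higher and 308 lower with no filter, and 375 and 819 in the single fit. They were 634 and 1557 with the term for the library sets, 546 and 1115 in the high-sum and 43 and 105 in the low-sum libraries. The unknown depth and 2 to 5 libraries per group limit the calls.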
